A study of Mus musculus with 2 samples.

Results

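Motile cilia genes were examined by RNA sequencing of C57BL/6 spinal cord taken at postnatal day 7. One genotype combined Olig1-Cre with Secisbp2l floxed around exon 3 (cKO), the other was wild type (WT), and each gave 1 library. The genes were chosen by symbol alone, as rows named for an axonemal dynein chain (Dnah, Dnaic, Dnal), a radial spoke protein (Rsph), a cilia and flagella associated protein (Cfap), a nexin-dynein regulatory subunit (Drc), a tektin (Tekt), one of several central pair or coiled-coil proteins (Hydin, Spag, Ccdc), or Foxj1. The rule took 71 of 51826 genes, and no measured value entered it. Of these 71 genes, 56 reached a mean of at least 1 CPM (counts divided by library size, times 1000000) over both libraries and are called measured below, and 15 did not. Cre was driven from Olig1, a gene of oligodendrocyte lineage progenitors, and both libraries were made from whole cord with the same strain, age and kit. How many mice each library pooled is not stated in the labels. With 1 library in each group no difference has a replicate check, so no p-value is given for any gene.

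Ependymal cells line the central canal of the spinal cord and the ventricles of the brain, and they carry motile cilia that move cerebrospinal fluid. The axoneme of such a cilium is a ring of doublet microtubules around a central pair. Outer and inner dynein arms on the doublets are the motors, radial spokes link the doublets to the central pair, and the nexin-dynein regulatory complex ties neighbouring doublets together. Foxj1, a forkhead transcription factor, switches on the genes of motile cilia. Many of the same genes also serve the sperm flagellum, and some have relatives used mainly there.

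The libraries held 55179026 (cKO) and 42875143 (WT) estimated counts, and 1 sequenced fragment was taken as 2 counts. The values are log2 ratios of CPM, cKO over WT, with exact 95% intervals that cover counting error only. Secisbp2l itself had 466 CPM in the cKO library and 588 CPM in the WT library, a log2 ratio of -0.34 for the whole gene, which does not show whether exon 3 was removed. Xist had 13 counts in the cKO library and 35182 in the WT library, and 4 Y-linked genes were counted in the cKO library only. Differences by genotype and by sex therefore cannot be told apart for any gene. All 71 motile cilia genes lie on autosomes, which does not separate genotype from sex.

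The genes chosen by symbol had, as a group, nearly the same level in both libraries. Their summed level was 503 CPM in the cKO library and 493 CPM in the WT library, a log2 ratio of 0.03. Genes of high count weigh most in this sum. Cfap36, which is not restricted to motile cilia, had 67.6 CPM in the cKO library and 70.4 CPM in the WT library. Tekt5 went the other way, with 28.5 CPM in the cKO library and 23.5 CPM in the WT library. A sum without genes that also serve outside motile cilia was not computed. In whole cord the number of ependymal cells and the RNA per cell cannot be told apart. The 71 genes held 0.0503% of the cKO counts and 0.0494% of the WT counts. The median log2 ratio of the 56 measured genes was 0.07, beside 0.01 over all 15917 measured genes. A ratio above 0 was found for 31 of the 56, beside 52.3% of all measured genes. A gene was called higher or lower where the ratio was at least 1.5-fold with an interval leaving out a ratio of 1. By this size rule 2 of the 56, Ccdc114 and Hydin, were higher in the cKO library, and 0 were lower. Of all measured genes 2.46% were higher and 3.39% lower. Genes of low count pass the rule more often, and both genes lay between 2 and 5 CPM, where 2 of 24 motile cilia genes (8.33%) and 5.91% of all measured genes were called higher. Within 1.5-fold lay 94.6% of the measured motile cilia genes and 93.2% of all measured genes.

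**Figure D1:**
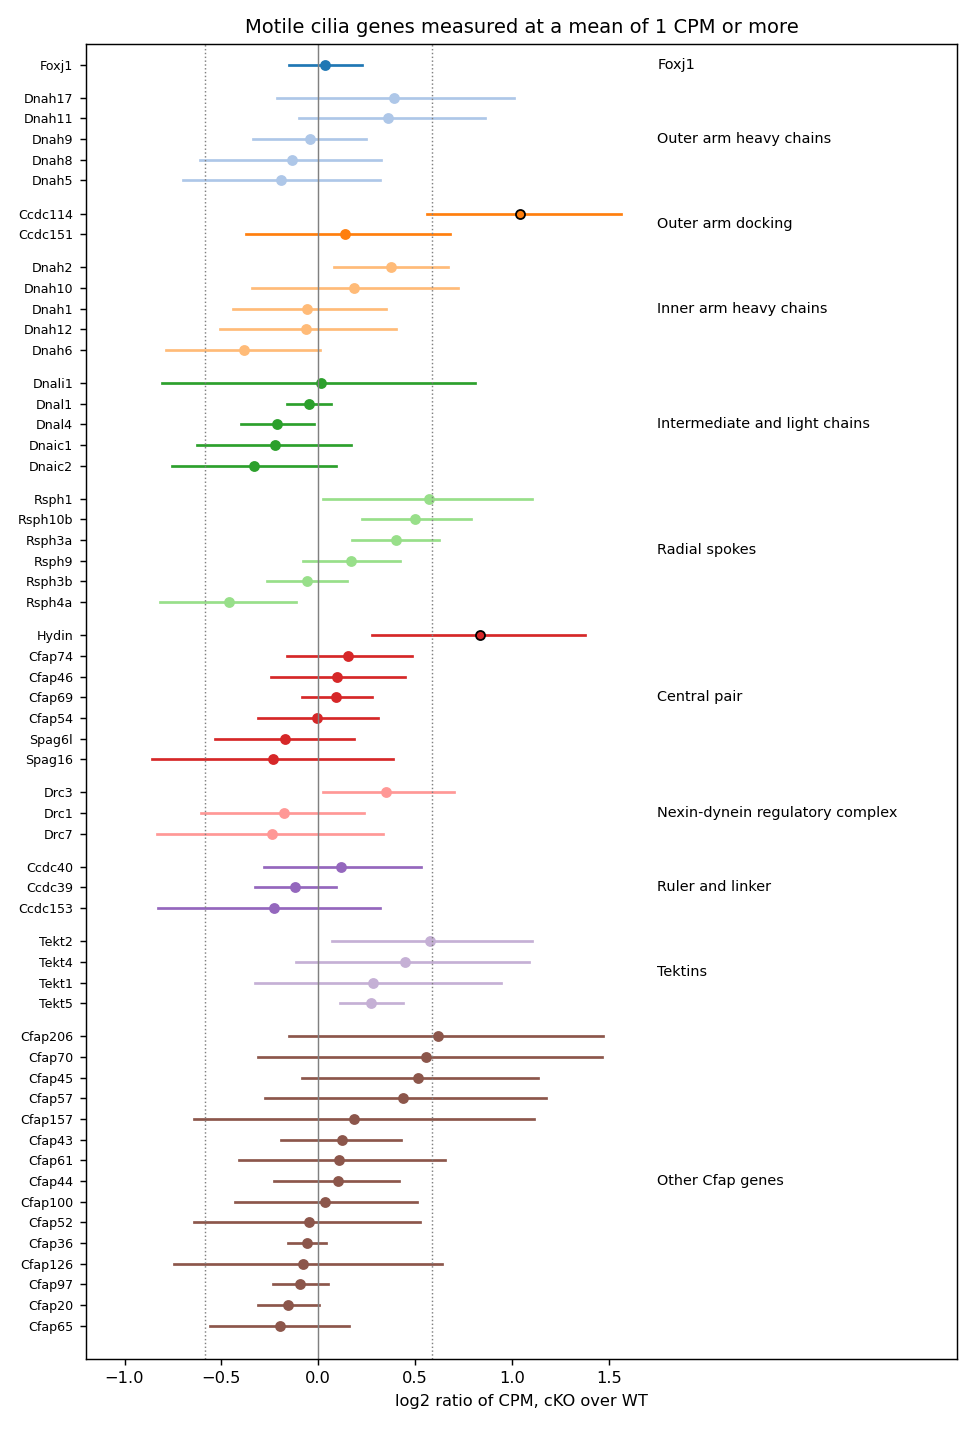
Log2 ratio of CPM, cKO over WT, of the 56 measured motile cilia genes, grouped by role, with exact 95% intervals that cover counting error only; dotted lines mark 1.5-fold and the black outlines mark the genes past the size rule. Ccdc114 at 1.04 and Hydin at 0.83 are the outlined points, and 9 intervals lie wholly above 0 and 2 wholly below, beside 21.9% of all measured genes above and 18.4% below, many of which have more counts.

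Most of these genes were expressed at a few TPM, the authors' value per transcript length and library depth. Of the 56 measured genes, 9 had a mean under 1 TPM, 34 had 1 to 10 TPM and 13 had 10 TPM or more. Cfap36, which binds the small GTPase Arl3 and is not restricted to motile cilia, had the highest level, with 96.1 TPM in the cKO library and 99.0 TPM in the WT library. Cfap20, a protein of the inner junction of the doublet, came next, with 46.1 TPM in the cKO library and 47.1 TPM in the WT library. Of the dynein heavy chains among the 71 genes, Dnah2 was highest in the cKO library, with 4.83 TPM, and had 1.98 TPM in the WT library. Dnah9 was highest of these in the WT library, with 2.48 TPM, and had 2.31 TPM in the cKO library. Dnah11, the next among the 71 genes, had a mean of 1.05 TPM. Heavy chain genes that the choice by symbol does not take were higher than Dnah9 in the WT library. Dnah7b had 3.73 TPM in the cKO library and 3.78 TPM in the WT library, and Dnah7a had 2.17 TPM in the cKO library and 3.19 TPM in the WT library. The order of levels was close in both libraries (Spearman rho 0.96 over the 71 genes, a description only, since the genes share 2 libraries).

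**Figure D2:**
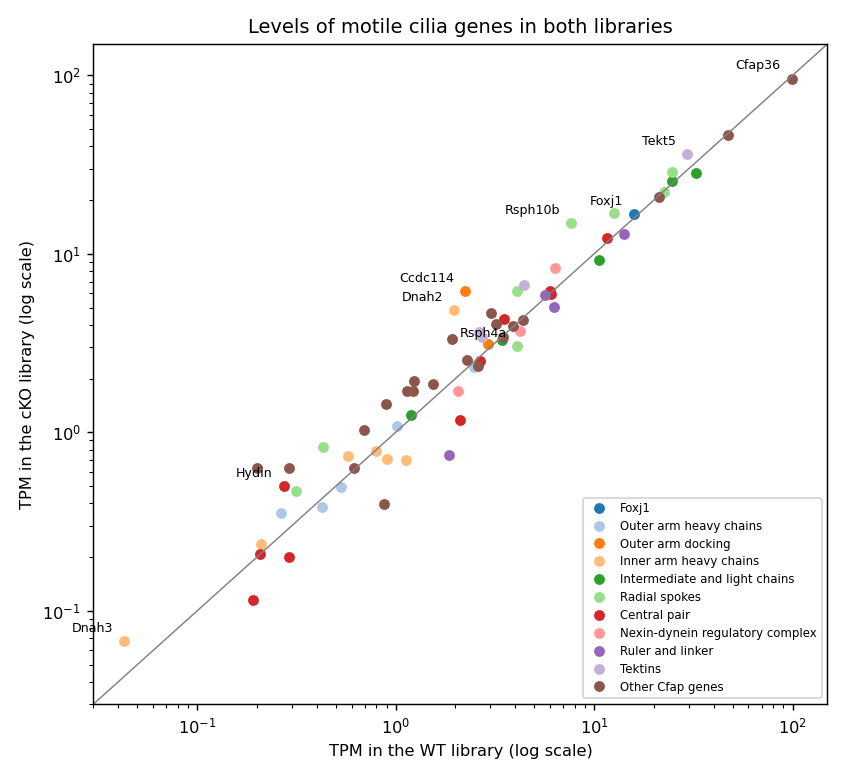
TPM of the motile cilia genes with a count in both libraries, cKO on the vertical and WT on the horizontal axis, both on log scales; the line marks equal TPM and colours mark roles. The points follow the line from Dnah3, below 0.1 TPM, to Cfap36 at 96.1 TPM in the cKO library and 99.0 TPM in the WT library, with Ccdc114, Dnah2 and Rsph10b above it.

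Foxj1 was at about the same level in both libraries. It had 1058 counts (16.7 TPM) in the cKO library and 802 counts (15.9 TPM) in the WT library, and the log2 ratio was 0.04 (-0.15 to 0.23). The gene (ENSMUSG00000034227, chr11:116330704-116335399, minus strand, GRCm38.p6) was counted through 1 transcript of 3 exons, so no division between transcripts enters this value.

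The outer dynein arm, a main source of beating force, had its heavy chains on both sides of 0. Dnah9 had 449 counts (2.31 TPM) in the cKO library and 360 counts (2.48 TPM) in the WT library, a log2 ratio of -0.04 (-0.34 to 0.24). Dnah11 had 200 counts (1.08 TPM) in the cKO library and 121 counts (1.02 TPM) in the WT library, a ratio of 0.36 (-0.10 to 0.86). Dnah8, whose human counterpart serves sperm flagella, had 173 counts (0.49 TPM) in the cKO library and 148 counts (0.53 TPM) in the WT library, a ratio of -0.14 (-0.61 to 0.32). Dnah5, a heavy chain of airway and ependymal cilia, was at -0.19, and Dnah17, the sperm counterpart of Dnah9 and Dnah11, was at 0.39. All 5 intervals include 0, and the median of these heavy chains was -0.04.

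The outer arm is held on the doublet by a docking complex, and here lay the larger of the 2 differences past the size rule. Ccdc114, a docking complex subunit whose loss in humans causes primary ciliary dyskinesia, had 257 counts in the cKO library and 97 counts in the WT library. That is 6.23 TPM in the cKO library and 2.24 TPM in the WT library. The level was 2.06-fold higher in the cKO library, a log2 ratio of 1.04 (0.56 to 1.56). The gene (ENSMUSG00000040189) lies at chr7:45924072-45948963 on the plus strand, and an antisense gene that overlaps its exons, Gm45442, had 8 counts in the cKO library and 0 in the WT library. Its main transcript, Ccdc114-201, had 166 counts in the cKO library and 60 in the WT library. Its partner in the docking complex, Ccdc151, had 154 counts (3.13 TPM) in the cKO library and 109 counts (2.94 TPM) in the WT library, with a ratio of 0.14 (-0.37 to 0.68).

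Inner arm heavy chains also lay on both sides of 0, with a median of -0.06 on the counts as deposited and none past the size rule. Dnah2, a heavy chain of the double-headed inner arm, had 520 counts in the cKO library and 312 counts in the WT library, a ratio of 0.37 (0.08 to 0.67). The TPM of Dnah2 gave a larger difference that passed the rule, 0.97 on the log2(TPM + 1) scale. The counted transcripts other than the full-length Dnah2-202 (13704 bases, 86 exons), which are 386 to 2616 bases long, held 72.5% of the TPM in the cKO library and 42.9% in the WT library, but 15.8% of the counts in the cKO library and 5.45% in the WT library. Dnah2-202 alone had 438 counts in the cKO library and 295 counts in the WT library, a log2 ratio of 0.21 (-0.10 to 0.51).

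Dnah12 had 188 counts (0.70 TPM) in the cKO library and 153 counts (1.13 TPM) in the WT library, a ratio of -0.06 (-0.51 to 0.40). The count of Dnah12 includes a transcript that lies outside the gene's listed span, with 69 counts in the cKO library and 89 in the WT library. Without it the ratio was 0.53 (-0.10 to 1.21). The median of the inner arm heavy chains given above includes this transcript, and without it the middle ratio would be that of Dnah10. Dnah6 had 216 counts (0.71 TPM) in the cKO library and 219 counts (0.91 TPM) in the WT library, a ratio of -0.38 (-0.79 to 0.01). Dnah1 was at -0.06 and Dnah10, the partner of Dnah2 in the double-headed arm, was at 0.19. The 3 mouse genes for the Dnah7 heavy chain, whose letter suffixes the naming rule does not take, were at -0.47 (Dnah7a), 0.07 (Dnah7b) and -0.05 (Dnah7c).

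Intermediate and light chains of the dynein arms were lower in the cKO library in 4 of 5 cases, with a median log2 ratio of -0.21 and none past the size rule. Dnal4, a light chain of the LC8 family, had 990 counts (28.3 TPM) in the cKO library and 892 counts (32.5 TPM) in the WT library, a ratio of -0.21 (-0.40 to -0.02). Dnal1, a leucine-rich repeat light chain of the outer arm, had 2759 counts (25.5 TPM) in the cKO library and 2220 counts (24.8 TPM) in the WT library, a ratio of -0.05 (-0.16 to 0.07). Dnaic1, an outer arm intermediate chain, had 229 counts (9.22 TPM) in the cKO library and 208 counts (10.6 TPM) in the WT library, a ratio of -0.22 (-0.63 to 0.17). Most of these counts, 89.1% in the cKO library and 88.0% in the WT library, were given to Dnaic1-203, a 965-base transcript annotated as retaining an intron. The coding Dnaic1-201 had 24 counts (0.39 TPM) in the cKO library and 22 counts (0.46 TPM) in the WT library. An antisense gene that overlaps exons of Dnaic1, Enho, had 4301 counts in the cKO library and 3623 in the WT library. The other intermediate chain, Dnaic2, was at -0.33, and Dnali1, a light chain of the inner arms, was at 0.02. Of the 5 intervals, only that of Dnal4 leaves out 0.

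Radial spoke genes ranged from Rsph4a at -0.46 to Rsph1 at 0.57, with a median of 0.28 and none past the size rule. Rsph9, a subunit of the spoke head, had 647 counts (28.6 TPM) in the cKO library and 448 counts (24.8 TPM) in the WT library, a ratio of 0.17 (-0.08 to 0.42). Rsph3b, one of the genes for the spoke stalk protein, had 859 counts (22.2 TPM) in the cKO library and 695 counts (22.5 TPM) in the WT library, a ratio of -0.06 (-0.26 to 0.15). Its copy Rsph3a had 894 counts (17.0 TPM) in the cKO library and 527 counts (12.6 TPM) in the WT library, a ratio of 0.40 (0.17 to 0.62). The copies are hard to separate, since 77.7% of the 50-base stretches of Rsph3a and 84.7% of those of Rsph3b occur in the other. Their sum was 1753 counts in the cKO library and 1222 counts in the WT library, a ratio of 0.16 (0.01 to 0.31).

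The remaining spoke genes differed in direction. Rsph4a, a spoke head subunit found in motile cilia, had 269 counts (3.05 TPM) in the cKO library and 288 counts (4.11 TPM) in the WT library, a ratio of -0.46 (-0.82 to -0.12). Rsph1, another head subunit, had 174 counts (6.23 TPM) in the cKO library and 91 counts (4.07 TPM) in the WT library, a ratio of 0.57 (0.03 to 1.11), and it passed the size rule with upper quartile scaling (0.59) and on TPM with a pseudocount of 0.1 (0.60). Rsph10b had 598 counts (14.8 TPM) in the cKO library and 329 counts (7.67 TPM) in the WT library, a ratio of 0.50 (0.22 to 0.79), and it passed the rule on TPM with a pseudocount of 0.1 (0.94). Rsph10b shares exons on its strand with Pms2, a mismatch repair gene, and with Gm42421. The 3 genes together had a ratio of 0.58 (0.42 to 0.75), so reads of this locus cannot be given to Rsph10b alone.

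Central pair genes had a median of 0.09, and Hydin stood above the others. Hydin, a very large protein of a central pair projection whose loss causes hydrocephalus in mice, had 190 counts in the cKO library and 83 counts in the WT library. That is 0.50 TPM in the cKO library and 0.27 TPM in the WT library. The level was 1.78-fold higher in the cKO library, a log2 ratio of 0.83 (0.28 to 1.38). The gene (ENSMUSG00000059854) lies at chr8:110266977-110610253 on the plus strand, has no exon overlap with another counted gene, and was counted through Hydin-201 alone (15783 bases, 87 exons). Hydin was not past the rule with a fold limit of 2 or on TPM with a pseudocount of 1, where its ratio was 0.24. That pseudocount is larger than either TPM of Hydin, so it shrinks any such difference. With a pseudocount of 0.1 the TPM ratio was 0.69, past the rule. Neither Ccdc114 nor Hydin reaches 5 CPM, and with a filter at that level 0 of 24 motile cilia genes were past the rule in either direction.

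The other central pair genes were within 1.5-fold. Cfap69 had 1191 counts (12.3 TPM) in the cKO library and 869 counts (11.6 TPM) in the WT library, a ratio of 0.09 (-0.09 to 0.28). Cfap74, whose Chlamydomonas counterpart sits with those of Cfap46 and Cfap54 in a single projection, had 396 counts (6.22 TPM) in the cKO library and 277 counts (6.00 TPM) in the WT library, a ratio of 0.15 (-0.16 to 0.48). Most of these counts, 282 in the cKO library and 210 in the WT library, were given to Cfap74-204, a transcript of 5 exons. Cfap74-209, of 38 exons, had 78 counts in the cKO library and 32 in the WT library, a log2 ratio of 0.92 (0.05 to 1.86). Spag6l had 281 counts (5.96 TPM) in the cKO library and 246 counts (6.09 TPM) in the WT library, a ratio of -0.17 (-0.54 to 0.19). Cfap46 was at 0.10, Cfap54 at -0.01 and Spag16, the counterpart of a protein that bridges the central microtubules in Chlamydomonas, at -0.24. The intervals of all 6 genes include 0.

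The nexin-dynein regulatory complex and the ruler proteins that set the axonemal repeat had no gene past the size rule. The median of the Drc genes was -0.18, and of their intervals only that of Drc3 leaves out 0. Drc3 had 395 counts (8.33 TPM) in the cKO library and 241 counts (6.33 TPM) in the WT library, a ratio of 0.35 (0.03 to 0.70). Drc1 had 209 counts (3.68 TPM) in the cKO library and 184 counts (4.22 TPM) in the WT library, a ratio of -0.18 (-0.60 to 0.24). Drc7 had 108 counts (1.70 TPM) in the cKO library and 99 counts (2.05 TPM) in the WT library, a ratio of -0.24 (-0.83 to 0.33). Subunits of the same complex thus lay on both sides of 0.

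Ccdc39, which forms the ruler with Ccdc40, had 825 counts (12.9 TPM) in the cKO library and 697 counts (14.2 TPM) in the WT library, a ratio of -0.12 (-0.33 to 0.09). Ccdc40 had 252 counts (5.85 TPM) in the cKO library and 181 counts (5.65 TPM) in the WT library, a ratio of 0.12 (-0.28 to 0.53). Ccdc153, a gene used as a marker of mouse ependyma, had 113 counts (5.01 TPM) in the cKO library and 103 counts (6.28 TPM) in the WT library, a ratio of -0.23 (-0.83 to 0.32). The ruler proteins and Ccdc153 therefore differed by less than the counting error in these libraries.

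Tektins, filament proteins bound inside the doublet microtubules, were above 0 in all 4 measured cases, with a median of 0.36 and none past the size rule. Tekt5 had 1570 counts (36.5 TPM) in the cKO library and 1010 counts (29.4 TPM) in the WT library, a ratio of 0.27 (0.11 to 0.44). Tekt2 had 192 counts (6.65 TPM) in the cKO library and 100 counts (4.41 TPM) in the WT library, a ratio of 0.58 (0.07 to 1.10). It passed the rule with upper quartile scaling (0.60) and on unrounded transcript estimates (0.59). Tekt4 had 135 counts (3.67 TPM) in the cKO library and 77 counts (2.63 TPM) in the WT library, a ratio of 0.45 (-0.12 to 1.09), and Tekt1 was at 0.28. Tekt3 had 0 counts in the cKO library and 2 in the WT library, below the floor of 6 counts in both.

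The other Cfap genes, proteins of various parts of the axoneme and its base, had a median of 0.10, and 9 of 15 were above 0. Cfap36 had 3728 counts in the cKO library and 3020 counts in the WT library, a ratio of -0.06 (-0.16 to 0.04). Cfap20 had 1435 counts in the cKO library and 1242 counts in the WT library, a ratio of -0.15 (-0.31 to 0.00). Cfap97 had 1779 counts (20.7 TPM) in the cKO library and 1476 counts (21.3 TPM) in the WT library, a ratio of -0.09 (-0.23 to 0.05). These 3 genes have the most counts of the group and the narrowest intervals.

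Cfap206, whose Tetrahymena counterpart sits at the base of a radial spoke, had the highest ratio of these genes, 0.62 (-0.15 to 1.47) on 83 counts in the cKO library and 42 counts in the WT library, and among the alternatives run it passed the size rule only where each deposited count was taken as a fragment. Cfap70 was at 0.56, Cfap45, a protein inside the doublet lumen, at 0.52, Cfap57 at 0.44 and Cfap157 at 0.19. Cfap43 and Cfap44, whose Tetrahymena counterparts tether an inner dynein, were at 0.12 and 0.10. The value of Cfap43 includes a transcript of the neighbouring gene Itprip, with 226 counts in the cKO library and 133 in the WT library, and without it the ratio was -0.14 (-0.58 to 0.29). The median and the number above 0 given for this group include that transcript. Without it Cfap43 would not be among the genes above 0, and the middle ratio would be that of Cfap100. Cfap61 was at 0.11, Cfap100 at 0.04, Cfap52 at -0.05, Cfap126 at -0.08 and Cfap65 at -0.20. The intervals of all 15 include 0.

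The 15 genes below 1 CPM had at most 51 counts in a library, and none was at 0 in both. Among them Ccdc113 had 24 counts in the cKO library and 46 in the WT library, a ratio of -1.30 (-2.44 to -0.23). Spag17, a central pair protein, had 18 counts in the cKO library and 44 in the WT library, a ratio of -1.65 (-2.95 to -0.48). Cfap99 had 21 counts in the cKO library and 36 in the WT library, a ratio of -1.14 (-2.49 to -0.02). With no filter beyond 6 counts over both libraries these 3 of 70 motile cilia genes would be called lower, beside 826 of 24188 genes, and they were singled out after their values had been seen. The other 12 were Cfap221, Spag6, Dnah3, Dnah14, Cfap53, Cfap58, Cfap73, Cfap77, Cfap161, Rsph6a, Rsph14 and Tekt3. Of these, 5 were at least 1.5-fold higher in the cKO library and 1, Cfap221, was 1.77-fold lower, all with intervals that include 0, so no difference was detectable at this depth.

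The authors' estimate divides a gene's counts between its transcripts, and for 9 of the 56 measured genes the leading transcript differed between the libraries (16.1%), beside 9.69% of all 15917 measured genes. In Cfap43 and Dnah12 the difference rests on the misplaced transcripts described above, and without these it was 7 of 56 (12.5%). Misplaced transcripts were not sought in the other measured genes. The shares are also not matched for count, since 24 of the 56 genes reach 5 CPM, beside 12715 of all 15917. Of the Rsph10b counts, Rsph10b-205 held 50.8% in the cKO library and 10.6% in the WT library, and Rsph10b-203 held 42.3% in the cKO library and 82.7% in the WT library. Of the Ccdc40 counts, Ccdc40-201 held 59.9% in the cKO library and 3.31% in the WT library, and Ccdc40-202 held 10.3% in the cKO library and 64.1% in the WT library. Both Ccdc40 transcripts have 19 exons, and the first is 4979 and the second 3524 bases long. Of the Cfap57 counts, Cfap57-202 held 93.6% in the cKO library and 0% in the WT library, where the 95% Wilson interval reaches 12.5%. Summed over transcripts, these 3 genes stayed within 1.5-fold, with gene ratios of 0.50 (Rsph10b), 0.12 (Ccdc40) and 0.44 (Cfap57).

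Cfap100-201 held 37.9% of the gene's counts in the cKO library and 0.72% in the WT library. Dnaic2-206, a noncoding transcript, held 21.4% in the cKO library and 0.53% in the WT library. Spag16-205, also noncoding, held 0% in the cKO library, on 0 counts, and 42.5% in the WT library, on 37 counts. Of the Ccdc114 counts, Ccdc114-202 held 16.3% in the cKO library, on 42 counts, and 1.03% in the WT library, on 1 count. In 14 measured genes, Hydin and Foxj1 among them, a single transcript held all counts in both libraries.

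**Figure D3:**
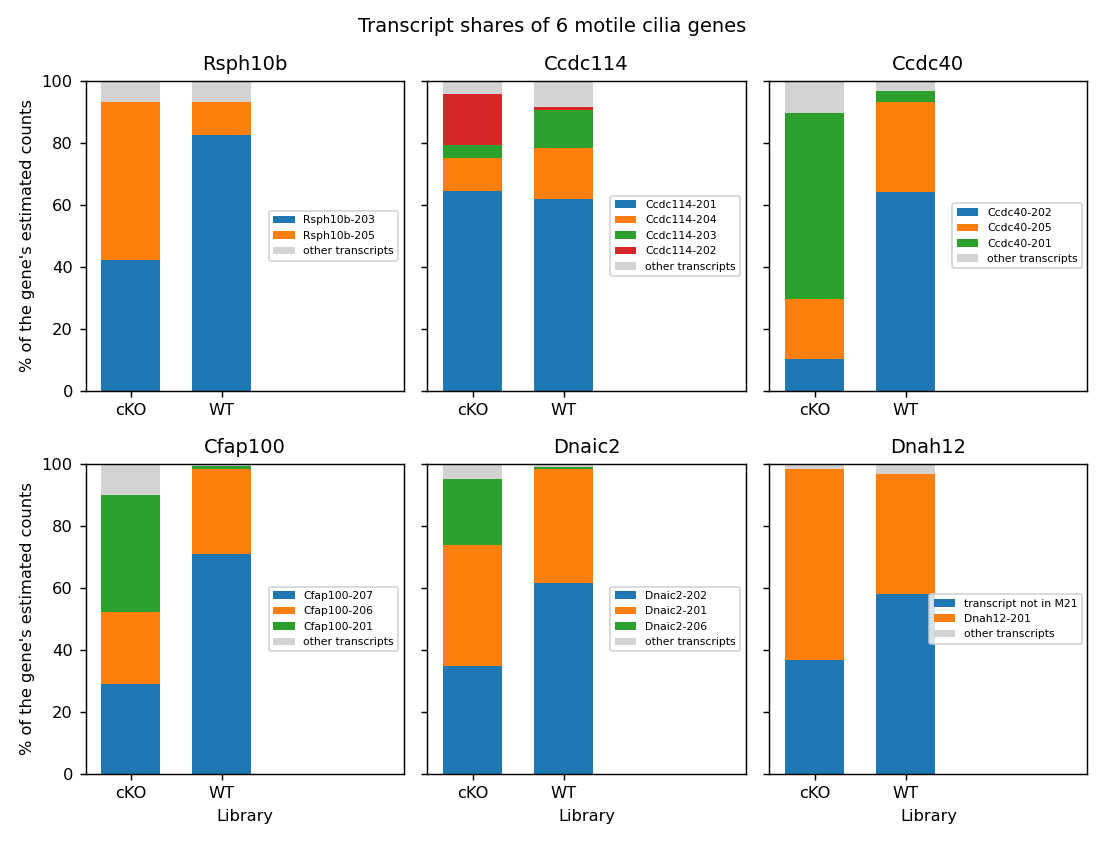
Share of a gene's estimated counts, in %, given to each transcript with at least 10% of them in either library, for 6 motile cilia genes, cKO bar left of the WT bar; grey is the sum of the other transcripts. In Rsph10b, Ccdc40, Cfap100, Dnaic2 and Dnah12 the tallest segment changes between libraries, in Dnah12 because of the transcript outside the gene's span, while Ccdc114-201 leads in both, with 64.6% in the cKO library and 61.9% in the WT library.

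Promoter sequences, which the choice by symbol did not use, were searched for a ciliary motif. RFX transcription factors, which act on ciliary genes, bind the X-box, a motif whose left arm is GTTGCC. In the RefSeq promoter table (GRCm38.p6, 250 bases before to 50 after each start), 60 of the 71 genes had an entry. GTTGCC, sought on both strands, occurred in 20 of these 60 (33.3%), beside 14.1% of 27025 genes in the table and 14.9% of 11444 measured genes with an entry. The longer form, GTTGCC and after any 2 bases GG, which contains the first, occurred in 7 of 60 (11.7%), beside 2.59% of all genes and 3.15% of measured genes. The same arm followed by ATGG, any base and AAC occurred in 0 of 60 and in 0.0851% of all genes. These spellings were chosen after the shares of several had been seen. The stretches below show the motif in its setting before the start of genes from different parts of the axoneme, Hydin of the central pair, Tekt2 of the doublet, Dnaic2 and Dnah10 of the dynein arms, Drc1 of the regulatory complex, and Cfap20 and Cfap44. They are written on the gene's strand with GTTGCC or its complement GGCAAC in capitals.
Hydin, chr8:110266940-110266976, plus strand: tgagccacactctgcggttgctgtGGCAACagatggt
Tekt2, chr4:126325755-126325808, minus strand: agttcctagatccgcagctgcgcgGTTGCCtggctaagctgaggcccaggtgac
Dnaic2, chr11:114727369-114727418, plus strand: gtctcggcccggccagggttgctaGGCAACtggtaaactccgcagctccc
Dnah10, chr5:124725041-124725084, plus strand: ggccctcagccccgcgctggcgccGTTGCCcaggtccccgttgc
Drc1, chr5:30281358-30281392, plus strand: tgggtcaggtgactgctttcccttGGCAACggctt
Cfap20, chr8:95434934-95434987, minus strand: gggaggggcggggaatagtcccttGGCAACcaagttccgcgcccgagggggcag
Cfap44, chr16:44394756-44394798, plus strand: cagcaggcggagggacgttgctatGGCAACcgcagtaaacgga

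The genes shown with the motif had ratios on both sides of 0, from -0.33 for Dnaic2 to 0.83 for Hydin. A forkhead motif, TGTTTAC on either strand, occurred in 4 of 60 promoters (6.67%), beside 4.05% of all genes and 3.07% of measured genes, and the TATA box TATAAA in 3 of 60 (5%), beside 15.7% of all genes and 8.79% of measured genes. A match describes the letters only.

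Other genes of motile cilia, on lists of symbols that the naming rule does not take, were compared in the same way. Of 46 genes for dynein assembly, docking and further axonemal parts, 31 were measured, 0 were past the size rule, 19 were above 0 and the median was 0.05. Morn2, the one of highest mean TPM, had 17.8 TPM in the cKO library and 19.9 TPM in the WT library (ratio -0.20). Of 37 intraflagellar transport and BBSome genes, which serve primary and motile cilia alike, all were measured, 0 were past the rule, 21 were above 0 and the median was 0.03. Kifap3, a subunit of the anterograde motor, had 179 TPM in the cKO library and 162 TPM in the WT library (ratio 0.11), and Arl3 had 147 TPM in the cKO library and 143 TPM in the WT library (ratio 0.01).

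Regulators of multiciliation had a median of 0.00 over 10 measured of 16, with 1 past the rule. Rfx2, an RFX factor of ciliary genes, had 350 counts (4.40 TPM) in the cKO library and 173 counts (2.75 TPM) in the WT library, a log2 ratio of 0.65 (0.28 to 1.05). It was not past the rule with a fold limit of 2 or on TPM with a pseudocount of 1. Its relative Rfx3 was at -0.14 and Gmnc, which starts the multiciliation programme, at 0.32 (-0.16 to 0.81). E2f4 had the highest level of the list, with 34.5 TPM in the cKO library and 36.3 TPM in the WT library (ratio -0.14), and Rfx4, next by mean TPM, had 20.04 TPM in the cKO library and 17.5 TPM in the WT library (ratio 0.16). Mcidas, a coactivator needed for multiciliation, had 0 counts in the cKO library and 13 counts in the WT library, under the filter on level, and was singled out after its values had been seen.

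A list of 12 ependymal genes outside the axoneme was compared in the same way. Ratios between the libraries do not show which cells expressed the cilia genes. Of the 12 genes 10 were measured, 0 were higher, 1 was lower, and the median was 0.00. A ratio above 0 was found for 6 of the 10 and below 0 for 4. Their summed level was 536 CPM in the cKO library and 450 CPM in the WT library, a log2 ratio of 0.25, with the most counts from Celsr2, a cadherin also expressed by neurons, which was at 0.44 (0.39 to 0.50). Cd24a, also expressed by immature neurons, had 153 TPM in the cKO library and 151 TPM in the WT library (ratio 0.00), and Pltp had 96.4 TPM in the cKO library and 80.8 TPM in the WT library (ratio 0.34). Mia was the lower one, with 104 counts in the cKO library and 157 counts in the WT library, a ratio of -0.96 (-1.48 to -0.42), and it shares exons on its strand with Gm21983. Rarres2 was at -0.17 and Tmem212, on 70 counts in the cKO library and 39 in the WT library, at 0.48 (-0.39 to 1.32). S100a6 was at -0.26 (-0.44 to -0.08), Mlf1 at -0.46 (-0.93 to 0.05), Nkx6-1 at 0.06 and Calml4 at 0.01. Under the filter, Pifo was at -0.65 and Cdhr3 at -0.36, both with intervals that include 0.

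Markers of other cell types that carry or adjoin motile cilia were also read. Choroid plexus genes were 5 measured of 10, with a median of 0.10 and a summed level of 23.1 CPM in the cKO library and 23.0 CPM in the WT library. The measured genes, with counts in cKO and WT, were Sostdc1 (470, 396), Kl (385, 269), Aqp1 (172, 125), Kcnj13 (102, 98) and Clic6 (80, 41). Under the filter, Ttr had 0 counts in the cKO library and 2 in the WT library, and Otx2 had 0 in both. Folr1, Kcne2 and Slc4a5 were also under the filter, with counts in both libraries. Whether these genes mark choroid plexus here was not tested. Floor plate and roof plate genes were 4 measured of 7, with a median of 0.05 and summed levels of 161 CPM in the cKO library and 156 CPM in the WT library. Of 6 testis and sperm genes 0 were measured. Tnp1, Odf1 and Akap4 were at 0 in both libraries. Prm1 had 33 counts in the cKO library and 19 in the WT library, Tnp2 had 12 in the cKO library and 6 in the WT library, and Prm2 had 7 in the cKO library and 0 in the WT library.

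Markers of cell types without motile cilia were read as well. All 7 oligodendrocyte genes were lower in the cKO library by the size rule, with a median of -0.93 and a summed level of 7803 CPM in the cKO library and 16093 CPM in the WT library. The 6 neuron genes were all above 0, with a median of 0.20 and none past the rule, the 6 astrocyte genes had a median of -0.06, and the 6 genes of meninges and fibroblasts had a median of -0.23 with 1 lower, Igf2. The part of these shifts in the ratios of the cilia genes was not tested.

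**Figure D4:**
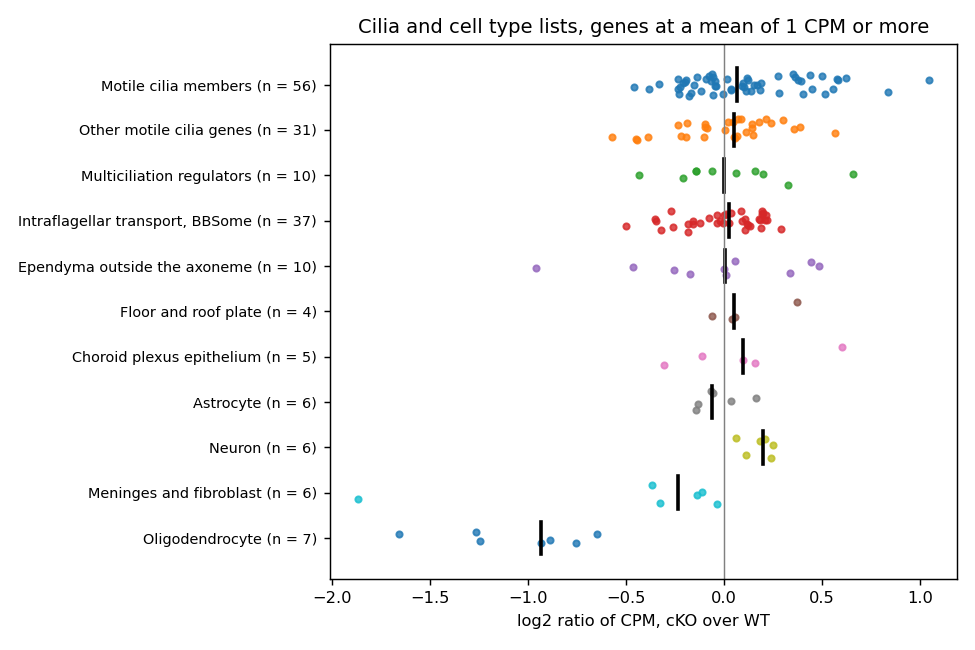
Log2 ratio of CPM, cKO over WT, of each measured gene (points, spread vertically only for legibility) on the cilia and cell type lists, with the median of each list as a black bar. The medians of the motile cilia genes (0.07) and of the 3 other cilia lists (0.05, 0.00 and 0.03) lie near 0, and the oligodendrocyte genes lie wholly to the left, with a median of -0.93.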

How the data were processed

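RNA was taken from whole spinal cord, and the series names an Illumina HiSeq instrument and, per the labels' protocols, a VAHTS mRNA-seq kit. The submitters' processing notes list Bowtie2 2.3.2, CASAVA and GRCm38.p6 (the genome build) without a role. No source used here gives the counter, its annotation release or its strand setting.

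The authors deposited estimated counts, TPM and FPKM per gene and per transcript, per the file headers. The deposited counts are whole numbers, but 98.8% (cKO) and 98.9% (WT) of low transcript counts equalled FPKM times length times a constant, rounded up to a whole number, within 0.1. Before rounding, in genes with 1 transcript, 35.6% (cKO) and 37.7% (WT) of low values lay within 0.2 of an even number and 16.8% (cKO) and 15.2% (WT) within 0.2 of an odd number. For this reason 2 counts were treated as 1 fragment, a choice the sources do not state, and intervals on counts as deposited were an alternative.

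Library sizes were scaled by TMM (edgeR 4.0.16, R 4.3.3), with factors of 0.999 for cKO and 1.001 for WT. Exact (Clopper-Pearson) 95% intervals were computed on fragments with scipy 1.17.1 under Python 3.11.15, and counts of 0 were replaced by 3 fragments (6 counts). Genes with a mean of at least 1 CPM were measured. No test was run, since single libraries give no residual degrees of freedom. Shares of transcripts have 95% Wilson intervals. PCR copies are not independent molecules, so intervals and floors cover counting error only. The procedure was run on simulated fragments drawn with counting error only, the error that the intervals assume, so this run does not test the calls in these libraries.

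Exon overlaps, transcript names and lengths came from GENCODE M21, and shared 50-base stretches from its transcripts. Every measured motile cilia gene is named with its ratio. Counts, TPM and interval are given for genes past the size rule, for Foxj1 and for up to 3 genes of highest TPM per role. From other lists up to 3 genes past the rule and the 2 of highest TPM are named, except 1 gene that is not reported here. The members, roles and lists were chosen with earlier results of these data known. Alternatives were other scalings (DESeq2 1.42.0 size factors, upper quartile, total count), other filters and fold limits, the authors' TPM with pseudocounts of 0.1 and 1, a prior count, intervals on counts, and genes with overlapping exons left out.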

Additional observations from a re-analysis of the deposited data

How the results depend on the processing

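The number of motile cilia genes higher in the cKO library was 2, and it became 4 with upper quartile scaling (Tekt2 and Rsph1 added), 5 on TPM with a pseudocount of 0.1 (Rsph10b, Rsph1 and Dnah2 added), 1 with a fold limit of 2, 8 with a fold limit of 5 to 4, 0 of 24 with a filter of 5 CPM, and 1 of 35 without genes that have antisense exon overlap. The last was chosen after seeing the data, as were unrounded transcript estimates and leaving out misplaced transcripts. The number lower was 0, and it became 3 with no filter beyond 6 counts and 1 (Rsph4a) with a fold limit of 5 to 4. Over all genes the number higher was 391, and it became 657 with no filter, 190 with the 5 CPM filter, 130 with a fold limit of 2 and 990 with a fold limit of 5 to 4. The number lower was 539, and it became 826 with no filter, 306 with the 5 CPM filter, 337 on TPM with a pseudocount of 1, 183 with a fold limit of 2 and 1244 with a fold limit of 5 to 4. For most of these settings the construction itself changes how many genes can be called; for the scalings and TPM the cause was not tested. The median ratio of the motile cilia genes ran from -0.01, without genes that have antisense overlap, to 0.10, with no filter, so its sign is not fixed. Ccdc114 was past the rule under every alternative that kept it, and it was not kept by the 5 CPM filter or by leaving out antisense overlap. No paired analysis was possible because each group has 1 library. Most motile cilia genes have few counts, and differences inside their intervals were not detectable at this depth.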
